A study of Mus musculus with 6 samples.

Results

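The insulin-like growth factor (IGF) family was described here through 10 genes: the ligands Igf1 and Igf2, the receptors Igf1r and Igf2r, and the binding protein genes Igfbp2 to Igfbp7. They were chosen by name as a family, with earlier results of these data known. They stood among 19938 genes that the arrays measured under a single gene symbol. Each of the 10 had exactly 1 row of values. The arrays held RNA of primary cultures from the brains of OF1 mouse embryos at embryonic day 17 that had differentiated, with fetal calf serum present, into mixed neurons and glia. Cultures in serum-free medium without growth factors then received vehicle (control, 3 arrays, called not treated in another label) or 1,25-dihydroxyvitamin D3, the hormonal form of vitamin D, at 10 nM (1,25D, 3 arrays). All 6 cultures thus shared the strain, the serum phase and the growth factor withdrawal, and differed by the labels in the hormone alone. The labels call the replicates biological and give neither the length of treatment nor whether embryos were pooled.

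IGF1 and IGF2 are small secreted peptides related to insulin. They act through the IGF1 receptor, a tyrosine kinase that signals to PI3K, Akt and mTOR and to Ras and ERK. The IGF2 receptor, which also carries mannose 6-phosphate tagged enzymes to lysosomes, takes IGF2 up for breakdown. The binding proteins hold the peptides outside the cell, extend their lifetime and control their access to the receptor, and proteases such as PAPP-A release the peptides again. In the brain the family is known for its part in the growth, survival and differentiation of neurons and glia. IGFBP3 is a textbook target of the vitamin D receptor in human cell lines.

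No member passed the test between the 1,25D and control cultures (limma, Benjamini-Hochberg adjusted p under 0.05 over all 19938 genes). The count was 0 of 10 without and 0 of 10 with the replicate number as a block, where 0.0251% and 0.0903% of all genes passed. At an unadjusted p under 0.05 there was 1 member of 10 in either fit, Igfbp7, against 1.48% of all genes without the block (0.527% lower) and 5.78% with it (2.61% lower). The median log2 difference was -0.0046 over the 10 members and 0.0074 over all genes, with 5 members above 0 and 5 below. Igfbp7, which had the lower mean in 1,25D, and Igfbp5, which had the higher mean, marked the 2 ends of the family. Values below are log2 of the array intensity, and n is 3 arrays a group throughout. The intensity of a row depends on its probes as well as on the transcript, so the levels of different genes are not compared with each other. As a guide to intensity alone, 7 of the 10 members had a mean above the median of all genes (7.95). Igf2, Igfbp4 and Igfbp6 lay below it.

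**Figure D1:**
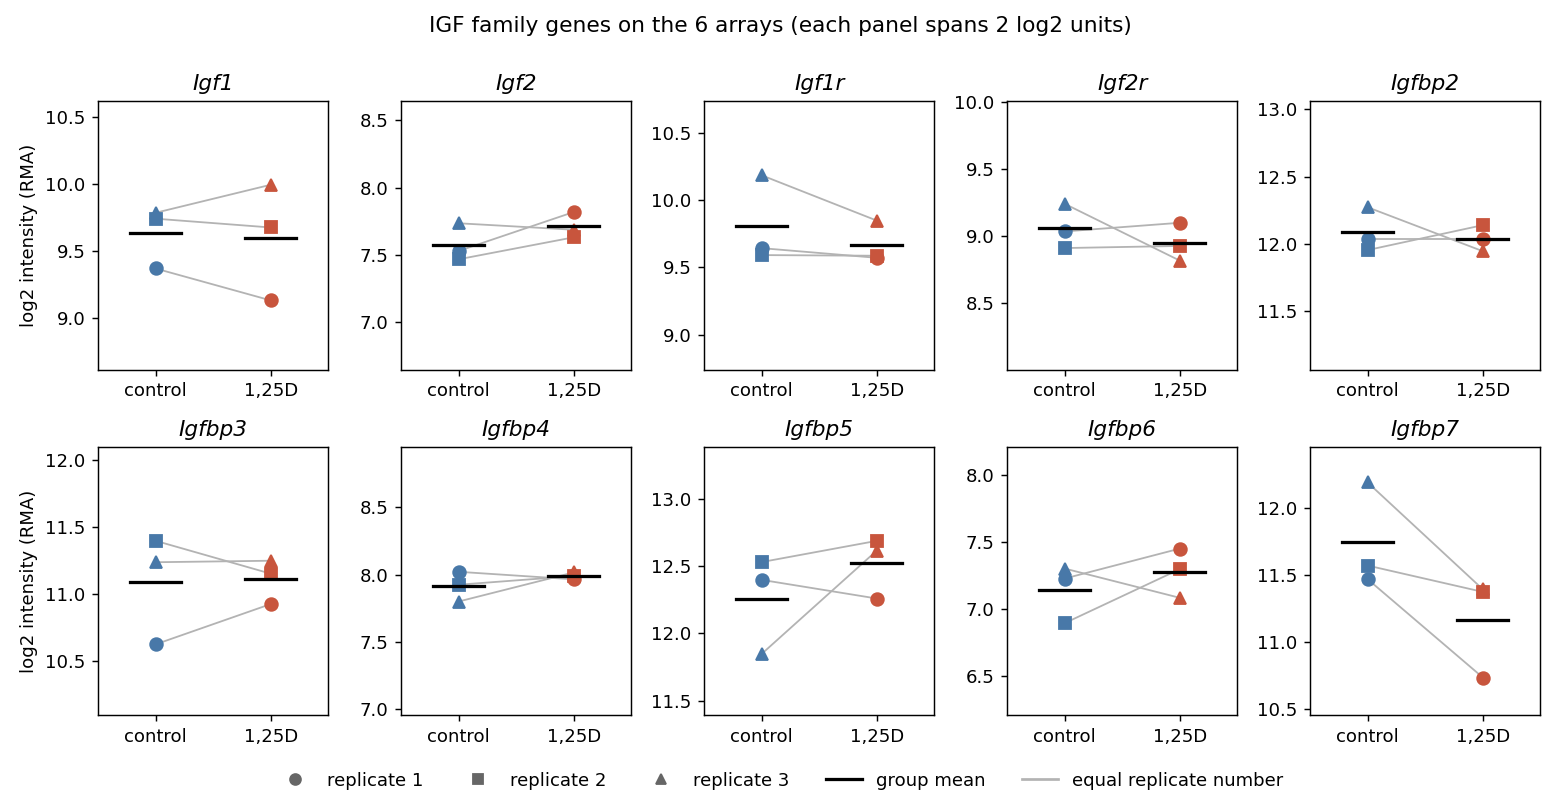
Log2 intensity (vertical axis) of each of the 10 genes in the control and 1,25D cultures, with a point for each array, a line between arrays of equal replicate number and a bar for the group mean. The groups are apart in 1 panel, that of Igfbp7, where the lowest control is 11.47 and the highest 1,25D array is 11.39.

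Several facts about the arrays bear on these values. Arrays of equal replicate number deviated together over all genes, so differences within equal numbers are given as pairs 1, 2 and 3. The replicate 1 arrays of both groups held identical values for 1094 genes, and 1 of these was a member, Igfbp2. Of the genes that report the hormone itself, S100g, which encodes a small calcium buffer and is a classical vitamin D target, rose by 1.56 ± 0.13 (SE, adjusted p = 0.022, limma). Vdr, the vitamin D receptor, had a mean higher by 1.76 ± 0.30 and passed in neither fit (limma, adjusted p = 0.38 without the block and 0.052 with it). Of the markers of the labelled cells, Gfap of astrocytes had a control mean of 11.61, Map2 and Tubb3 of neurons of 10.94 and 7.41, and Aif1 of microglia of 6.03, levels that cannot be ranked across probes. Markers of astrocytes were below 0 in 8 of 8 genes (median difference -0.081). Those of neurons were below 0 in 7 of 8 (median -0.062), and none was called. Of all 19938 genes, 9375 were below 0. By pair the astrocyte median was -0.28, 0.017 and -0.10, so it was not lower in pair 2. The neuron median was -0.17, -0.13 and -0.011. The part of these cells in the family's values was not tested. The values carry no detection call, so presence or absence of a cell type cannot be read from them.

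Igf1, the ligand made in the brain by microglia and by some neurons and astrocytes, read 9.37, 9.74 and 9.79 in control replicates 1, 2 and 3 and 9.13, 9.68 and 10.00 in the 1,25D replicates. Replicate 1 was the lowest array of each group, and the control values lay inside the span of the treated ones. The log2 difference, 1,25D minus control, was -0.031 ± 0.22 (SE), with an unadjusted 95% interval from -0.55 to 0.48. Pairs 1 and 2 were lower and pair 3 higher, at -0.24, -0.066 and 0.21, and without 1,25D replicate 1 the difference was 0.20. Microglia markers were higher in 7 of 8 genes with a median of 0.073, where 10563 of all 19938 genes were above 0, and none passed. Their summed intensity ran from 1004 to 1142 in controls and from 1054 to 1310 in 1,25D. Only 1 of these 8 markers had a mean level above the median of all genes (7.95), so most are rows of low intensity. The part of these cells in the Igf1 values was not tested. In such bulk RNA, fewer cells of a type and less RNA per cell cannot be told apart. A summed intensity, here and below, weighs the rows of highest intensity in its list most. Igf1os, a non-coding gene on the opposite strand at the Igf1 locus, had a mean of 5.47 in both groups.

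Igf2, the fetal ligand expressed from the paternal copy in most tissues, had values of 7.53, 7.47 and 7.73 in controls and 7.82, 7.63 and 7.69 in 1,25D. The highest control exceeded both lower treated arrays, so the groups overlapped. Its difference was 0.14 ± 0.11 (SE), with an interval from -0.12 to 0.39, and it was positive in pairs 1 and 2 (0.29 and 0.16) and negative in pair 3 (-0.048). Mir483, a microRNA gene inside Igf2, had a mean of 8.76 ± 0.40 in controls and 8.84 ± 0.27 in 1,25D (SD), a difference of 0.082 ± 0.22 (SE). Ins2, the insulin gene that neighbours Igf2 on the chromosome, differed by 0.033 ± 0.14 (SE). The choroid plexus and the meninges are known sources of Igf2 in the developing brain. Markers of choroid plexus had a median difference of 0.0080 and those of meningeal fibroblasts of 0.024, with 4 of 8 and 6 of 8 above 0 and none called. In mean level, 4 of 8 and 2 of 8 were above the median of all genes. Their summed intensities ran from 3322 to 4700 and from 1633 to 1880 in controls and from 3640 to 4491 and from 1793 to 2236 in 1,25D, and the part of these cells in the Igf2 values was not tested.

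Igf1r, the signalling receptor, read 9.64, 9.59 and 10.19 in controls and 9.57, 9.59 and 9.85 in 1,25D. Replicate 3 was the highest array of each group, while the other 4 arrays lay between 9.57 and 9.64. The mean difference of -0.14 ± 0.17 (SE, interval -0.54 to 0.27) thus came mostly from pair 3. By pair it was -0.072, -0.0049 and -0.34. Without control replicate 3 the difference was 0.051. Igf1r and Igfbp7 were the 2 members of 10 with 1 sign in all pairs, both lower, where 25.8% of all genes had 1 sign in all pairs and 11.0% were lower in all of them.

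Igf2r, the clearing receptor, had values of 9.04, 8.91 and 9.24 in controls and 9.10, 8.93 and 8.82 in 1,25D. The third pair spanned the highest and the lowest of the 6 arrays (-0.42), against 0.064 and 0.016 in pairs 1 and 2. The difference was -0.11 ± 0.12 (SE), with an interval from -0.40 to 0.17. Airn, the imprinted non-coding RNA that silences the paternal Igf2r copy outside neurons, had a mean of 8.46 ± 0.06 in controls and 8.33 ± 0.06 in 1,25D (SD). Its groups did not overlap, as for 4.15% of all genes, its difference was -0.13 ± 0.092 (SE), and it did not pass (adjusted p = 1.00, limma). Insr, the insulin receptor, which can pair with IGF1 receptor chains, differed by 0.0011 ± 0.18 (SE).

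Among the binding proteins, the promoters of 3 are shown because their genes gave the lowest difference (Igfbp7), the highest (Igfbp5) and the family's textbook vitamin D target (Igfbp3). Each stretch is the 250 bases before the gene's RefSeq start in GRCm38.p6, on the minus strand, at chr5:77408046-77408295, chr1:72874866-72875115 and chr11:7213924-7214173 in that order. Capitals mark every GGGCGG box, the core of Sp1 sites, on either strand (read as CCGCCC on the other).
Igfbp7: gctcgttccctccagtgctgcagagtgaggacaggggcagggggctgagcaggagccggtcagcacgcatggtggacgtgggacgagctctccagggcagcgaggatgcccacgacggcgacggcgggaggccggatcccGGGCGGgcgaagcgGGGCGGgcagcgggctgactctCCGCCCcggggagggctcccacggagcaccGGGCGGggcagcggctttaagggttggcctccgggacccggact
Igfbp5: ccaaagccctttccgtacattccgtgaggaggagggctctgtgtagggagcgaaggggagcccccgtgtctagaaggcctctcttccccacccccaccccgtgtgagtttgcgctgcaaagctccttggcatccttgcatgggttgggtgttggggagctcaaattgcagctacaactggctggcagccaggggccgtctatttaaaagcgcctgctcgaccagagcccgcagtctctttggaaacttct
Igfbp3: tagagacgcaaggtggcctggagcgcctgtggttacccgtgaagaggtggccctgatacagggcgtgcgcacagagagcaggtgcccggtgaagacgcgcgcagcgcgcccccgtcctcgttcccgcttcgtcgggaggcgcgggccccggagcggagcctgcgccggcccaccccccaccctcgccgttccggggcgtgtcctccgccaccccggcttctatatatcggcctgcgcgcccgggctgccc
The Igfbp7 stretch held 4 such boxes and the other two held none. At least 1 box was in 6 of the 14 windows of the 10 members, those of Igf1r, Igf2, Igf2r, Igfbp2 and Igfbp7, against 32.7% of all 32817 RefSeq promoter windows of that length. The direct repeat with 3 spacer bases known as the DR3 vitamin D response element was in 0 of the 14 windows. It was in 0.0396% of all windows, a share so low that 0 of 14 does not set these genes apart. Its half-site AGGTCA, searched on both strands, was in a window of 4 members (Igf1, Igf1r, Igf2 and Igf2r), in 4 of 14 windows, against 14.0% of all windows. TATAAA was in 2 of 14 windows, those of Igfbp4 and Igfbp6, against 12.4%. These matches describe letters in a short window and say nothing of sites farther away.

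Igfbp7, a secreted protein of vessels and matrix that binds IGFs weakly, read 11.47, 11.57 and 12.19 in controls and 10.74, 11.37 and 11.39 in 1,25D. Every treated array lay below every control. It was the 1 member of 10 whose groups did not overlap, against 4.15% of all genes, or 1.52% counted in the lower direction. The mean was 1.49-fold lower in 1,25D, 11.17 ± 0.37 against 11.74 ± 0.39 (SD), with a log2 difference of -0.57 ± 0.24 (SE). The interval ran from -1.13 to -0.02 without the block and from -0.88 to -0.27 with it. The unadjusted p was 0.045, or 0.0035 in the blocked fit, rank 268 and rank 149 of 19938 genes. After adjustment these were 1.00 and 0.46 (limma, adjusted p). An exact two-sided permutation test gave p = 0.1, the smallest that 3 arrays against 3 allow. By pair the difference was -0.73, -0.20 and -0.80, so replicates 1 and 3 carried most of it. Without control replicate 3, the highest array, it was -0.35, and without 1,25D replicate 1, the lowest, -0.36; without any other single array it lay between -0.71 and -0.66. Markers of other cells that express Igfbp7 were set beside it. Endothelial markers had a median difference of -0.0060, 4 of 8 below 0, and a summed intensity of 1638 to 2503 in controls and 1745 to 2175 in 1,25D. In mean level, 1 of 8 endothelial and 3 of 8 pericyte and smooth muscle markers were above the median of all genes. Markers of pericytes and smooth muscle had a median of 0.0055, 4 of 8 below 0, and sums of 8664 to 9662 and 7291 to 8963. Such sums follow the rows of highest intensity and do not stand for the list as a whole. Within that list Tagln and Acta2, both contractile genes, had differences of -0.23 ± 0.11 and -0.20 ± 0.14, and Pdgfrb, the pericyte receptor, of 0.48 ± 0.20 (SE), none of which passed. The part of these cells in the Igfbp7 values was not tested.

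Igfbp5, a matrix-bound carrier known from neurons and from bone, read 12.40, 12.53 and 11.85 in controls and 12.26, 12.69 and 12.62 in 1,25D. Control replicate 3 stood below the other 5 arrays, and the groups overlapped. Its difference of 0.26 ± 0.20 (SE) was the highest of the family, with an interval from -0.20 to 0.72, an unadjusted p of 0.22 and an adjusted p of 1.00 (limma). It came from pair 3, at 0.77, with -0.14 and 0.16 in pairs 1 and 2, and was 0.057 without control replicate 3. Igfbp2, its neighbour on chromosome 1, which is transcribed toward it with no protein-coding gene between, read 12.03, 11.95 and 12.27 in controls and 12.03, 12.14 and 11.94 in 1,25D. The replicate 1 values were identical, which fixes that pair at 0, and pairs 2 and 3 went opposite ways (0.19 and -0.33). The difference of Igfbp2, the most abundant binding protein of the fetal brain in textbook accounts, was -0.047 ± 0.12 (SE), with an interval from -0.32 to 0.22. Within pair 3 the neighbours thus differed in sign, -0.33 for Igfbp2 and 0.77 for Igfbp5.

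Igfbp3, the main carrier of IGFs in blood, read 10.63, 11.40 and 11.24 in controls and 10.93, 11.15 and 11.25 in 1,25D. Replicate 1 was the lowest of each group, and the treated values lay inside the span of the controls. The difference was 0.022 ± 0.20 (SE). Its interval, from -0.45 to 0.49, reached from a 1.36-fold lower to a 1.40-fold higher mean, and with the block from -0.25 to 0.30, up to 1.23-fold higher. By pair it was 0.30, -0.24 and 0.011, and without control replicate 1 it was -0.21. Igfbp1, which lies beside Igfbp3 on chromosome 11 and is transcribed toward it, had means of 6.86 ± 0.14 and 6.81 ± 0.07 (SD) and a difference of -0.050 ± 0.11 (SE).

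Igfbp4, an inhibitory carrier that PAPP-A cleaves, read 8.02, 7.93 and 7.80 in controls and 7.96, 7.99 and 8.02 in 1,25D. These were the closest values of the family, with an SD of 0.11 in controls and 0.026 in 1,25D, and the difference was 0.075 ± 0.097 (SE, interval -0.15 to 0.30). Igfbp6, which prefers IGF2, read 7.23, 6.89 and 7.30 in controls and 7.45, 7.30 and 7.08 in 1,25D. Pairs 1 and 2 were higher by 0.22 and 0.40 and pair 3 lower (-0.22), for a mean of 0.14 ± 0.15 (SE, interval -0.20 to 0.47); without control replicate 2 the difference was 0.013 and without 1,25D replicate 1 it was 0.049. Igfbp4 was higher in pairs 2 and 3 (0.065 and 0.22) and lower in pair 1 (-0.056), and without control replicate 3 its difference was 0.017.

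**Figure D2:**
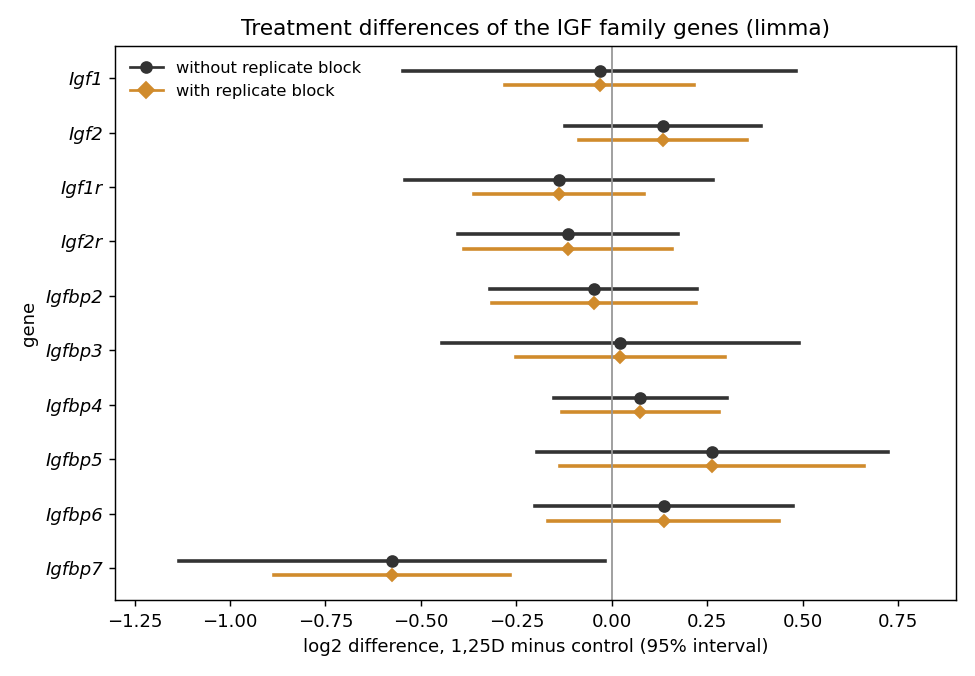
Log2 difference, 1,25D minus control (horizontal axis), of the 10 genes (vertical axis) with unadjusted 95% intervals from limma, without and with the replicate number as a block. The interval of Igfbp7 lies below 0 in both fits (-1.13 to -0.02 and -0.88 to -0.27), and those of the other 9 genes include 0.

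The intervals set the sizes that these 6 arrays could not tell from 0. Without the block the upper bounds lay between 1.13-fold (Igf2r) and 1.65-fold (Igfbp5) higher for the 9 members other than Igfbp7. The lower bounds of these 9 lay between 1.09-fold (Igf2) and 1.46-fold (Igf1) lower. A p above the threshold does not show that these genes were alike in both groups.

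**Figure D3:**
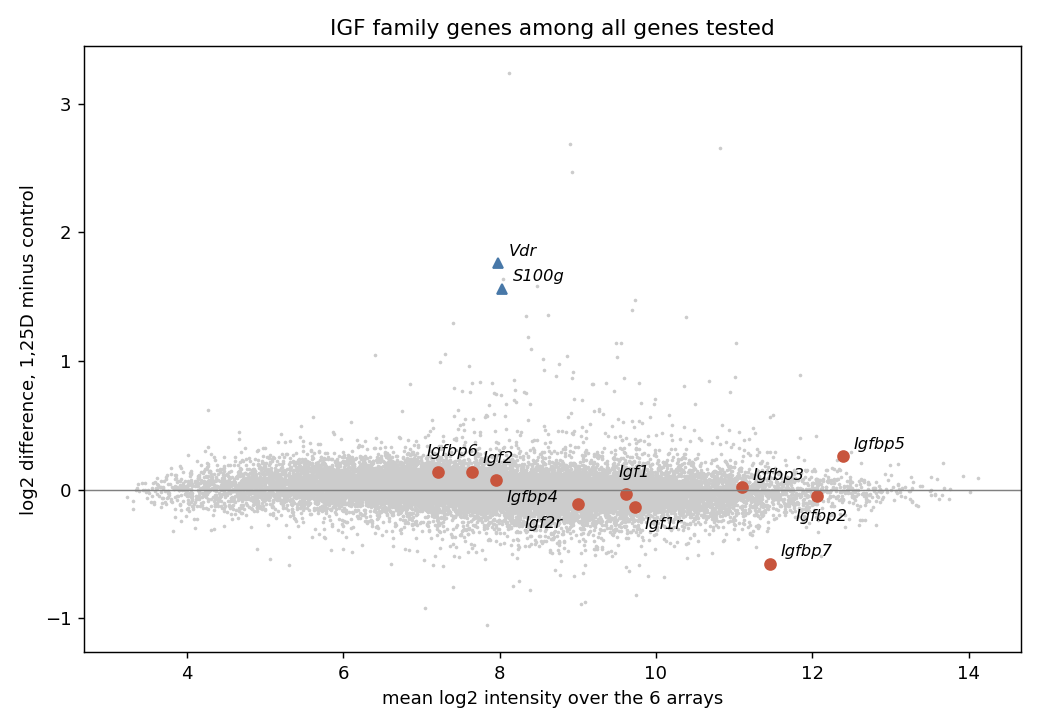
Log2 difference, 1,25D minus control (vertical axis), against the mean log2 intensity over the 6 arrays (horizontal axis) for all 19938 genes in grey, with the 10 family genes as circles and Vdr and S100g as triangles. Of the family, 9 genes lie between -0.14 and 0.26, and Igfbp7 lies at -0.57.

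The genes around the family were read from lists of its pathway. Over all genes 0.0251% passed without the block, so 0 passed does not set apart a list of this size. Of 6 measured genes of insulin, its receptors and related carriers 0 passed, with a median difference of 0.017; Insrr, an orphan receptor of the insulin family, was at 0.13 ± 0.12 and Igfals, the subunit that stabilises IGF in blood, at 0.081 ± 0.12 (SE). Of 12 genes of binding protein proteases and their inhibitors 0 passed, with a median of 0.028. Pappa, the protease of Igfbp4, was at -0.0044 ± 0.28, Htra3, a secreted serine protease, at 0.29 ± 0.13 and Ctsd, a lysosomal protease, at 0.21 ± 0.16 (SE).

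Downstream of the receptor, 0 of 27 genes of PI3K, Akt and mTOR passed, with a median of 0.020 and a range from -0.18 to 0.20. Irs1 and Irs2, the docking proteins of the receptor, were at -0.0050 ± 0.16 and 0.025 ± 0.14, and Inpp5d and Eif4ebp1, a lipid phosphatase and a translation repressor, at 0.13 ± 0.10 and 0.20 ± 0.16 (SE). Of 9 genes of Ras and ERK 0 passed, 7 were below 0 and the median was -0.096. Map2k1, the kinase MEK1, was at -0.23 ± 0.10 (SE), and its groups did not overlap, as for 4.15% of all genes. Shc3, a neuronal adaptor, was at -0.10 ± 0.10 (SE). Of 14 adaptors and phosphatases that bind or restrain the receptor 0 passed, with a median of 0.014.

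Grb14, an adaptor that inhibits the insulin receptor, had the difference farthest from 0 in these lists apart from Vdr, S100g and Igfbp7 itself. It read 8.64, 8.22 and 8.90 in controls and 9.39, 8.98 and 9.09 in 1,25D. Every treated array was above every control, where 4.15% of all genes had groups that did not overlap in either direction. The difference was 0.57 ± 0.19 (SE), at 0.76, 0.75 and 0.19 by pair, and its unadjusted p was 0.018 (limma, adjusted p = 1.00; 0.46 when blocked). Trib3, an inhibitor of Akt, was at 0.32 ± 0.18 (SE), with 0.74 in pair 1 against 0.052 and 0.15.

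Of the 2 measured Igf2 mRNA binding proteins 0 passed, with Igf2bp1 at 0.098 ± 0.090 and Igf2bp3 at -0.17 ± 0.13 (SE). Of 10 imprinted genes of the growth network 0 passed, with a median of -0.038. Cdkn1c, a cell cycle inhibitor that counters IGF2 in growth, was at 0.29 ± 0.13 and Peg3, a zinc finger gene, at -0.23 ± 0.16 (SE). By pair Cdkn1c was at 0.030, 0.18 and 0.65, so pair 3 carried most of its difference. Of 9 genes of the growth hormone axis 0 passed, with a median of -0.073; Stat5a, which carries the growth hormone signal to the nucleus, was at 0.15 ± 0.14 and Sst, somatostatin, at -0.098 ± 0.098 (SE). Of 9 other secreted or membrane proteins with a domain like that of the binding proteins 0 passed, with a median of 0.093. Kazald1 was at 0.22 ± 0.11 and Ccn3 at 0.18 ± 0.16 (SE). At an unadjusted p under 0.05 these 9 lists held 1 of their 97 distinct measured genes without the block (Grb14), or 1.03%, against 1.48% of all genes. With the block they held 4 (Grb14, Htra3, Map2k1 and Kazald1), or 4.12%, against 5.78%. Groups did not overlap for Grb14, Map2k1, Trib3, Cdkn1c and Kazald1 of the 97 genes, against 4.15% of all genes.

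**Figure D4:**
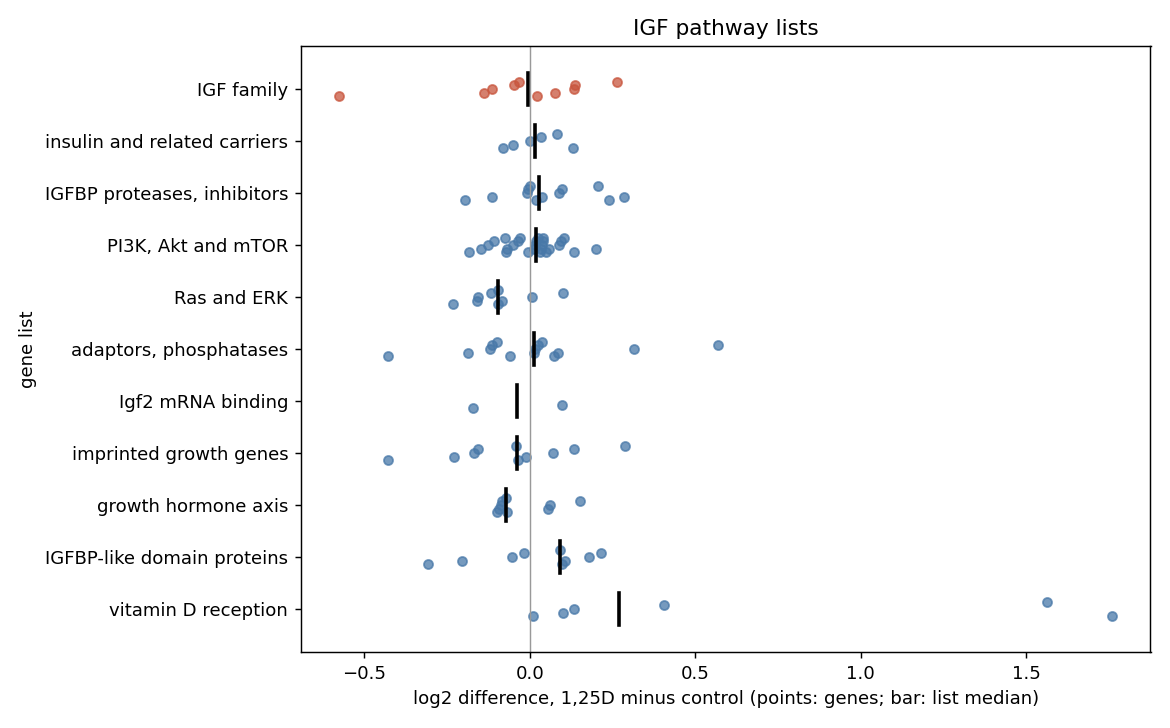
Log2 difference, 1,25D minus control (horizontal axis), of every measured gene (points) of the family and of 10 lists around it (vertical axis), with a bar at each list's median. The medians of the 9 pathway lists lie between -0.096 and 0.093, and S100g (1.56) and Vdr (1.76) of the vitamin D list lie farthest to the right.

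The 3 members that varied most over the arrays were Igfbp7, Igf1 and Igfbp5. For each, the nearest genes were found by the root mean square difference between log2 profiles centred on their mean over the 6 arrays. Nearest to Igfbp7 were Zfp518a (0.12), Tgfb3 (0.13) and Lama2 (0.14). The median distance over all genes was 0.45 for Igfbp7, 0.33 for Igf1 and 0.32 for Igfbp5. The nearest genes lie below it because they were picked as the smallest distances. Tgfb3 encodes a transforming growth factor and Lama2 a laminin chain. Tgfb3 read 10.49, 10.57 and 10.93 in controls and 9.88, 10.28 and 10.24 in 1,25D, a difference of -0.53 ± 0.16 (SE) that did not pass (adjusted p = 1.00, limma). Nearest to Igf1 were N4bp2 (0.046), Caap1 (0.049) and Amot (0.053), whose differences lay between -0.072 and 0.030. Nearest to Igfbp5 were Slc8a2, a sodium-calcium exchanger (0.057), Mapk8ip1, a JNK scaffold (0.075), and Col8a2, a collagen chain (0.086), each lowest in control replicate 3. With 6 arrays such nearness is a description of these arrays. The differences of genes picked for a like profile follow from that choice.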

How the data were processed

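RNA of 6 cultures was hybridised to Affymetrix arrays. The submitters' processing notes name RMA and Affymetrix Expression Console as the tools behind the deposited intensity values, without versions or filters. They are linear (8.05 to 22019, as the file shows), so log2 was taken. Of 35556 rows, 21789 had 1 gene symbol in GEO's platform annotation, 1621 several and 12146 none named here; where a gene had several rows (999 genes) that of highest mean was kept, giving 19938 genes. Median intensity was 240.4 to 252.9 over the arrays, whose number limits the precision. The comparison used limma 3.58.1 in R 4.3.3 (lmFit, eBayes), two-sided, with Benjamini-Hochberg adjustment over all genes, after tests on simulated data. The fit without a block is the reported one. Nothing in the labels says that replicate numbers mark a shared litter or day, so p-values reflect only how these samples varied, which may be technical; pairing rests on the correlations of equal numbers between deviations from the group means (0.51, 0.65 and 0.46), a hint from the data.

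Members, 19 other lists (167 of 186 distinct genes measured, older symbols updated through RefSeq synonyms) and alternatives were chosen with earlier results of these data known. The genes named were all members, the called or else the 2 lowest-p genes of each pathway list, a few fixed ones, and the 3 nearest profiles. Igf1os, Mir483 and Airn were named for their position, and Grb10, Igfbpl1 and single marker genes after their values were seen. H19 and Cyp24a1 were not analysed here. Promoters are RefSeq's (GRCm38.p6), matched by symbol for all 10 members. Alternatives covered the block, normalisation, filters, row choice, variance model, array weights and omission of arrays.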

Additional observations from a re-analysis of the deposited data

How the results depend on the processing

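No member was called under any of the 21 alternatives, and Igfbp7 stayed below 0 in each, between -0.76 and -0.35, with adjusted p-values from 0.27 to 1.00 (limma). Igf2, Igfbp4, Igfbp5 and Igfbp6 also kept their sign in all 21, but when arrays or pairs were left out Igf2 ranged from 0.058 to 0.23, Igfbp4 from 0.0042 to 0.14, Igfbp5 from 0.0095 to 0.46 and Igfbp6 from 0.0025 to 0.31. The other 5 members changed sign when arrays or pairs were left out: Igf1 ranged from -0.23 to 0.20, Igf1r from -0.25 to 0.051, Igf2r from -0.20 to 0.040, Igfbp2 from -0.16 to 0.093 (single arrays -0.11 to 0.046) and Igfbp3 from -0.21 to 0.18. With the replicate block, leaving out pair 1 put Igf1 at 0.072 and Igfbp3 at -0.12, and leaving out pair 3 put Igf2r at 0.040 and Igfbp2 at 0.093. Igfbp2 was also at 0.010 with array weights. Leaving out genes of identical replicate 1 values removed Igfbp2. Over all genes, 5 were called higher as reported, 18 with the replicate block, 10 with the block and quantile normalisation, 3 after quantile normalisation, 0 over all rows of the table and 0 without moderation of the variance, an alternative added after seeing the data. Leaving out single arrays gave 0 to 2 called higher and 0 lower. Leaving out pair 1, 2 or 3 under the block gave 38, 3 and 40 higher, and 2, 0 and 5 lower. The block changed no member's call. The causes were not tested. The number of arrays, 3 a group, limits the precision.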

Other observations

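Within each array the log2 ratio of Igfbp5 to Igfbp7, chosen after its values were seen, was 0.93, 0.96 and -0.34 in controls 1, 2 and 3 and 1.52, 1.31 and 1.22 in the 1,25D arrays. Every treated array was above every control. Igfbp7 alone already had groups that did not overlap, and these genes were picked as the ends of the family. The separation of the ratio is therefore not a separate result. The means were 0.51 and 1.35, a difference of 0.84, and control replicate 3, the array with the highest Igfbp7 and the lowest Igfbp5, stood farthest from the rest. The ratio sets no level of one gene against the other, since their probes differ, and it was not tested because it was picked for its ends.

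Igfbpl1, a gene of IGF binding protein-like structure known from immature neurons, varied more between replicate numbers than between groups. It read 10.35, 10.06 and 8.50 in controls and 9.65, 10.23 and 8.79 in 1,25D, low in replicate 3 of both, with a difference of -0.08 ± 0.52 (SE). Grb10, an imprinted adaptor of the receptor, read 8.10, 7.56 and 9.42 in controls and 8.41, 7.24 and 8.14 in 1,25D, with a difference of -0.43 ± 0.48 (SE). Both were named after their values were seen.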
